A study of Mus musculus with 15 samples.

Results

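The genes of the NRF2 antioxidant response were examined in tumor-associated macrophages (TAMs) from liver tumors of mice. They were the 10 genes whose symbol in the expression table is Nfe2l2, Keap1, Nqo1, Slc7a11, Gclc, Gclm, Gsr, Txnrd1, Srxn1 or Prdx1, of 55335 genes in the table, and each symbol had 1 entry. NRF2, the protein of Nfe2l2, is a transcription factor that KEAP1 holds in the cytoplasm and hands to the proteasome. Oxidants and electrophiles modify KEAP1, NRF2 then accumulates, pairs with small MAF proteins and switches on genes through antioxidant response elements (AREs). Its targets make and recycle glutathione and thioredoxin, and in macrophages they are known for limiting oxidative damage and the output of inflammatory cytokines. NRF2 activity is set largely by protein stability, which RNA levels do not show.

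TAMs were sorted by FACS, with antibodies against CD11b and F4/80, from orthotopic tumors in C57BL/6 mice, which had received cells of the mouse hepatoma line Hepa1-6 in the liver. The tumors came from Hepa1-6 cells infected with control lentivirus (control), with lentivirus for miR-144 (miR-144) or with lentivirus for miR-451a (miR-451a), so that the miRNA was overexpressed in the tumor cells and not by design in the macrophages. All groups shared the strain and the host line, which stably expressed luciferase, and the labels name no age, sex, batch or pooling of mice. Each group had 5 samples, 15 in all, with FPKM (fragments per kilobase of transcript, scaled to the mapped fragments of the sample) for each gene. The paper gives a smaller number of replicates for this RNA-seq and does not say which samples they were, so every deposited sample was used. The labels do not say that the samples of a group were separate mice, so the p-values measure the spread between these samples, which may be technical in part. The macrophage genes Adgre1, which encodes F4/80, and Csf1r were at 137 ± 4.96 and 401 ± 6.75 FPKM (mean ± SD, n = 5) in control TAMs. F4/80 was a marker of the sort, so Adgre1 is no independent check of the label. Hepatocyte and hepatoma genes stayed at or below a summed 0.253 FPKM in every sample, with Alb, Apoa1, Apoc3, Serpina1a and Ttr at 0. The Kupffer cell marker Clec4f was listed at 0 in every sample, but the 5 Kupffer cell markers together summed to between 3.30 and 3.77 FPKM in control, 17.1 and 50.1 FPKM in miR-144 and 16.0 and 47.3 FPKM in miR-451a, mostly through Cd5l (between 3.21 and 3.65 FPKM in control, 16.4 and 48.9 FPKM in miR-144 and 15.3 and 46.1 FPKM in miR-451a). The lists of T cell, B cell, NK cell, neutrophil, dendritic cell and erythroid markers each summed to at most 1.73 FPKM in a sample, the highest being that of B cells. The monocyte markers summed to between 2.38 and 3.74 FPKM in control and between 6.56 and 12.0 FPKM in the samples of both miRNA groups, and the endothelial markers to between 3.70 and 4.29 FPKM in control and between 4.65 and 5.93 FPKM in both miRNA groups. Among genes of alternative macrophage activation, Chil3 was between 4011 and 5779 FPKM in control samples and between 0.169 and 0.690 FPKM in the samples of both miRNA groups, Retnla was between 345 and 502 FPKM in control and listed at 0 in the others, and Mrc1 was between 127 and 144 FPKM in control, 53.9 and 100 FPKM in miR-144 and 57.2 and 110 FPKM in miR-451a. Adgre1 was 361 ± 24.7 FPKM in miR-144 and 354 ± 19.6 FPKM in miR-451a, and Csf1r was 691 ± 18.5 and 693 ± 30.7 FPKM. Means of Mertk, Fcgr1, Cd14 and Lyz2 were also above control in both miRNA groups, Cd68 was the one lower in both (1444 ± 46.2, 919 ± 25.0 and 910 ± 57.4 FPKM in control, miR-144 and miR-451a), and the 2 table entries of Itgam ranged from 9.99 to 93.2 FPKM over the samples. The macrophage list summed to between 8725 and 9565 FPKM in control and between 14541 and 16799 FPKM in the miRNA groups. Col1a1, a fibroblast collagen gene, was 70.0 ± 6.77, 102 ± 19.2 and 124 ± 11.8 FPKM in control, miR-144 and miR-451a. The part of these shifts in the results below was not tested, and in sorted bulk RNA fewer cells of a type and less RNA per cell cannot be told apart.

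The sequences of the overexpressed miRNAs are shown because their seeds can be looked up in the antioxidant genes. The mature miRNAs (RefSeq, GRCm38.p6) lie on chromosome 11, plus strand, miR-144-3p at chr11:78073047-78073066 and miR-451a at chr11:78073186-78073207, and the capitals mark the seed, bases 2 to 8.
mmu-miR-144-3p: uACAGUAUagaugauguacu
mmu-miR-451a: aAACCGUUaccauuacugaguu

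The longest annotated 3' UTR of each of the 10 genes (GENCODE M21, GRCm38) was searched for the 7 bases that pair with each seed. The miR-144-3p match, ATACTGT, occurs in 12.6% of 21039 genes with a 3' UTR, and the miR-451a match, AACGGTT, in 1.83%. These shares count a gene when any 3' UTR of its protein-coding transcripts holds the match, not only the longest. Among the 10 genes, Nfe2l2 held 2 matches to miR-144-3p and Slc7a11 and Prdx1 held 1 each, whereas Srxn1 held the only match to miR-451a. These matches are descriptions of the letters, and whether miRNA of the tumor cells reached the macrophages was not measured here. The sites are printed with the match in capitals.
Nfe2l2, chr2:75675694-75675717, minus strand: acagaacttatttATACTGTtctc
Nfe2l2, chr2:75675602-75675625, minus strand: tatacttttttatATACTGTatga
Slc7a11, chr3:50371896-50371919, minus strand: actggggacatctATACTGTgaaa
Prdx1, chr4:116700374-116700397, plus strand: aaatgaaaaaaaaATACTGTcaag
Srxn1, chr2:152110847-152110870, plus strand: tcagcctttaagtAACGGTTctca

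The 10 genes did not move as 1 block. Against control, TAMs of both miRNA groups had more RNA of Nfe2l2, Gclm and Prdx1 and less of Slc7a11, Srxn1 and Txnrd1, while Nqo1 and Gclc did not pass the test in either comparison. The calls of Gclm in miR-451a and of Txnrd1 in miR-144 were lost under some settings, given below. Keap1 passed only in miR-451a and Gsr only in miR-144, and the direct comparison of the miRNA groups called neither. Genes were tested with limma on log2(FPKM + 1), with p-values adjusted by Benjamini-Hochberg across all 11419 genes whose mean reached 1 FPKM, and called at an adjusted p under 0.05. Of the 10 genes, 9 reached that mean, and Slc7a11 (mean FPKM 1.86 in control and under 1 in both miRNA groups) was tested in the same fit with no filter. Of the 9, 6 were called in miR-144 (4 higher and 2 lower) and 6 in miR-451a (4 higher and 2 lower). In the whole table, 67.2% of tested genes were called in miR-144 (47.1% higher and 20.1% lower) and 68.3% in miR-451a (48.1% higher and 20.3% lower), so the share of antioxidant genes called, 66.7% in both, was near the background. The 2 comparisons share the control samples.

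Because so much of the table moved, the centre of the comparison matters. Over all tested genes the median log2 fold change was 0.13 in miR-144 and 0.14 in miR-451a, and that of the 9 antioxidant genes was 0.07 and 0.05. Of the called genes, 70.1% were higher in miR-144 and 70.3% in miR-451a, whereas centring each sample on its median gave 3512 higher and 3511 lower in miR-144 and 49.6% higher in miR-451a, quantile normalization gave 52.3% in both, and rescaling to TPM gave 76.5% and 77.3%. Nfe2l2, Prdx1, Slc7a11 and Srxn1 kept their direction and their call under each of these scalings in both comparisons with control. The groups did not overlap for 4 of the 9 genes in each comparison, against 53.9% of all tested genes in miR-144 and 55.2% in miR-451a.

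**Figure D1:**
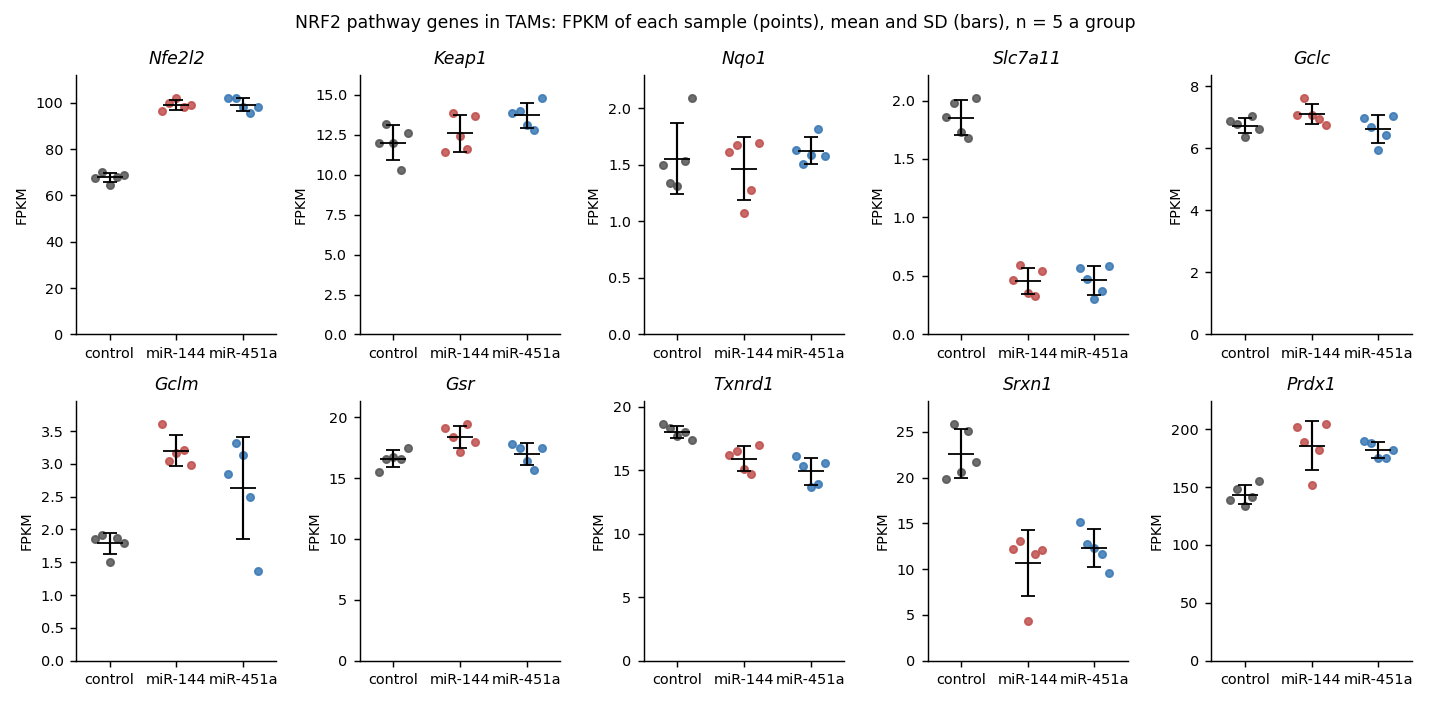
FPKM of the 10 NRF2 pathway genes in each TAM sample (points, 5 a group), with the group mean and SD (bars); each panel has its own axis from 0. Nfe2l2 stands above control and Slc7a11 and Srxn1 below it in every sample of both miRNA groups, and single samples lie low for Srxn1 (4.36 FPKM in miR-144) and Gclm (1.36 FPKM in miR-451a).

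The regulators came first. Nfe2l2 (ENSMUSG00000015839, chr2:75675513-75704641, minus strand) encodes NRF2 itself. Its FPKM was 67.5, 70.1, 64.5, 68.1 and 68.7 in control replicates 1 to 5. It was 96.6, 100, 102, 98.0 and 99.1 FPKM in miR-144 and 102, 102, 98.1, 95.4 and 98.2 FPKM in miR-451a. All samples of both miRNA groups were above all control samples, with a coefficient of variation of at most 3.06% within a group. The mean was 1.46 times that of control in both groups, and the log2 fold change was 0.54 in both (SE 0.03, limma adjusted p = 2.63e-10 in miR-144 and 2.40e-10 in miR-451a). Relative to the median of all genes the difference was 0.41 in each.

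Keap1 (ENSMUSG00000003308, chr9:21229730-21239361, minus strand) encodes the substrate adaptor through which a cullin 3 ligase marks NRF2 for degradation. It was 12.0, 13.2, 12.0, 10.3 and 12.6 FPKM in control, 11.4, 13.9, 12.4, 11.6 and 13.7 FPKM in miR-144 and 13.9, 14, 13.1, 12.8 and 14.8 FPKM in miR-451a. The groups overlapped. The log2 difference from control was 0.07 in miR-144 (95% interval -0.08 to 0.21, limma adjusted p = 0.403), and Keap1 rose by 0.18 in miR-451a (SE 0.07, limma adjusted p = 0.0240). The second call was lost after median centring (0.04, adjusted p = 0.633), after quantile normalization (0.09, adjusted p = 0.247) and without control replicate 4 (adjusted p = 0.0678) or miR-451a replicate 5 (adjusted p = 0.0618). An exon of Keap1 overlaps Gm16754 on the other strand, and that gene was between 0.102 and 0.987 FPKM in every sample.

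A ratio of 2 genes within a sample does not depend on the scaling of the sample, so 3 such ratios were compared, in 3 comparisons each, by a two-sided permutation test that was exact, as it ran through every way to split the 10 samples into 5 and 5, with adjustment over the 9 tests. The smallest p that this test can give is 0.00794, or 0.0179 once adjusted here. The ratio of Nfe2l2 to Keap1 was 5.62, 5.32, 5.39, 6.63 and 5.47 in control, 8.47, 7.21, 8.25, 8.42 and 7.23 in miR-144 and 7.35, 7.29, 7.52, 7.45 and 6.62 in miR-451a. Every miR-144 sample exceeded every control sample, and miR-451a replicate 5 lay at the level of control replicate 4. The ratio rose by 0.48 on the log2 scale in miR-144 (exact permutation, adjusted p = 0.0179) and by 0.35 in miR-451a (exact permutation, adjusted p = 0.0286). The miRNA groups differed by -0.13 (miR-451a minus miR-144, exact permutation, adjusted p = 0.153).

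**Figure D2:**
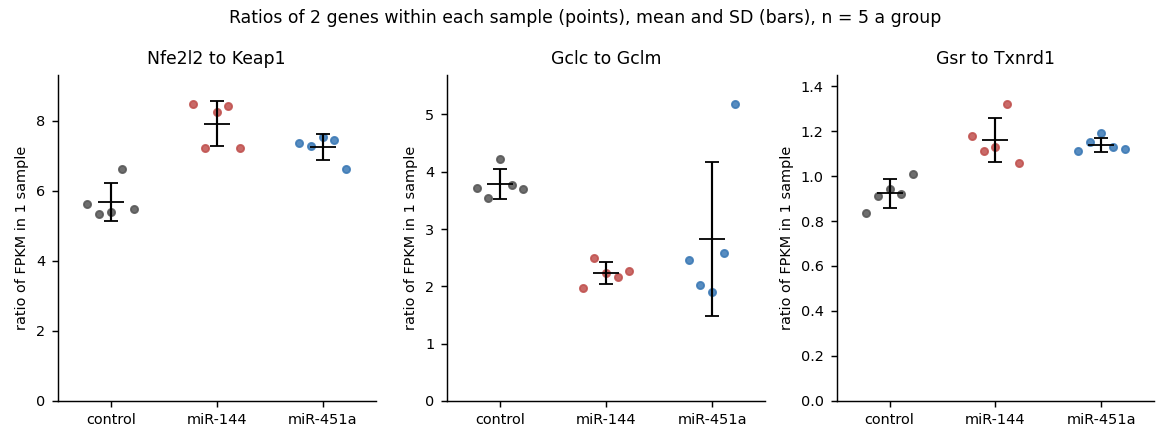
Ratios of FPKM of 2 genes within each sample (points, 5 a group), with the group mean and SD (bars), for Nfe2l2 to Keap1, Gclc to Gclm and Gsr to Txnrd1. The mean ratio of Nfe2l2 to Keap1 is 5.69 in control, 7.92 in miR-144 and 7.25 in miR-451a, and 1 miR-451a sample stands alone at 5.18 in the ratio of Gclc to Gclm.

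Nqo1 (ENSMUSG00000003849, chr8:107388225-107403206, minus strand) encodes a quinone reductase and is a classic readout of NRF2 activity. It was 1.5, 1.34, 1.31, 1.53 and 2.09 FPKM in control, 1.61, 1.68, 1.07, 1.28 and 1.69 FPKM in miR-144 and 1.63, 1.51, 1.59, 1.82 and 1.58 FPKM in miR-451a. The 3 groups overlapped. The log2 difference from control was -0.05 in miR-144 (95% interval -0.24 to 0.13, limma adjusted p = 0.627) and 0.05 in miR-451a (95% interval -0.14 to 0.23, limma adjusted p = 0.652). After quantile normalization Nqo1 was called lower in miR-144 (-0.22, limma adjusted p = 0.0316). The depth implied by the steps between low values puts as few as 37.4 fragments behind a value of Nqo1, the lowest among the 10 genes, so small differences could have been missed. The coefficient of variation was 20.2% in control, and the parts of depth and other spread were not tested.

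The genes of glutathione supply went in different directions. Slc7a11 (ENSMUSG00000027737, chr3:49892526-50443614, minus strand) encodes xCT, the light chain of the antiporter that brings in cystine for glutathione synthesis. It was 1.86, 1.98, 1.73, 1.68 and 2.02 FPKM in control, 0.464, 0.590, 0.356, 0.329 and 0.541 FPKM in miR-144 and 0.565, 0.474, 0.306, 0.373 and 0.589 FPKM in miR-451a. All control samples were above 1 FPKM, and all other samples were below it. The control mean was 4.07 times that of miR-144 and 4.02 times that of miR-451a. With 1 FPKM added before taking logs, which shrinks the fold of a gene this low, Slc7a11 fell by 0.97 in both (SE 0.07, limma adjusted p = 4.08e-08 and 4.07e-08 in the fit of 29540 genes with no filter), and with 0.1 FPKM added in place of 1 it fell by 1.84 in miR-144 and by 1.83 in miR-451a. In that fit, 9.65% of all genes were called lower in miR-144 and 9.69% in miR-451a. Slc3a2, which encodes the heavy chain that partners xCT, was named after its values were seen. It was between 48.6 and 54.5 FPKM in control, 35.9 and 42.0 FPKM in miR-144 and 36.3 and 42.2 FPKM in miR-451a, and fell by 0.45 (SE 0.05, limma adjusted p = 6.54e-07) and 0.41 (SE 0.05, limma adjusted p = 1.94e-06).

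The promoter of Slc7a11 is shown because ATF4, the transcription factor of the amino acid response, also acts on this gene. The window of 250 bases before to 50 bases after the start site (RefSeq, GRCm38.p6, chr3:50443564-50443863, minus strand) held the letters TGATGNAA of a C/EBP-ATF element at 2 places, on opposite strands, starting 66 and 47 bases before the start site, in capitals below. Of 32851 promoters of the same length, 3.97% held these letters on either strand.
Slc7a11 promoter: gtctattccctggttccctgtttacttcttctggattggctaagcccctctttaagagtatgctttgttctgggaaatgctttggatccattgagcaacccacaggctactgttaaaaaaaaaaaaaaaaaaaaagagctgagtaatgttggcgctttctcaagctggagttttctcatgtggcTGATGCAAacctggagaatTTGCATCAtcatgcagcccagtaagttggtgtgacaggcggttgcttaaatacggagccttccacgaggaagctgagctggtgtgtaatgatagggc

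Atf4 itself was 65.5 ± 10.3 FPKM in control, 36.0 ± 6.04 FPKM in miR-144 and 32.9 ± 5.64 FPKM in miR-451a (SD, n = 5), and fell by 0.85 (SE 0.13, limma adjusted p = 4.53e-05) and 0.97 (SE 0.13, limma adjusted p = 1.12e-05), with no overlap with control. Of 14 tested genes in a list of the ATF4 pathway, 4 were called higher and 6 lower in each comparison (71.4% called, against 67.2% and 68.3% of all tested genes), with a median log2 fold change of -0.18 in miR-144 and -0.09 in miR-451a, against 0.13 and 0.14 for all tested genes. Cebpb, a partner of ATF4, was between 51.1 and 69.4 FPKM in control and between 22.4 and 33.8 FPKM in the other samples. Asns, Psat1, Phgdh and Nupr1, also listed, overlapped with control in both comparisons. Whether ATF4 had a part in the fall of Slc7a11 was not tested. In the same list Ddit4, an inhibitor of mTORC1, rose from 4.94 ± 0.693 FPKM to 9.14 ± 1.08 and 8.51 ± 1.07 FPKM, and Sesn2, a sestrin that NRF2 also acts on, rose from 4.97 ± 0.378 to 8.53 ± 0.444 and 8.95 ± 0.717 FPKM.

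Gclc (ENSMUSG00000032350, chr9:77754535-77794485, plus strand) encodes the catalytic subunit of glutamate-cysteine ligase, the first enzyme of glutathione synthesis. It was 6.87, 6.79, 6.36, 7.03 and 6.64 FPKM in control, 7.07, 7.62, 7.09, 6.96 and 6.74 FPKM in miR-144 and 6.98, 6.70, 5.96, 6.43 and 7.05 FPKM in miR-451a. The groups overlapped, with a log2 difference of 0.06 in miR-144 (95% interval -0.03 to 0.16, limma adjusted p = 0.204) and -0.02 in miR-451a (95% interval -0.12 to 0.07, limma adjusted p = 0.653). A call depended on the scaling. Gclc was called lower in miR-451a after median centring (-0.17, limma adjusted p = 0.00269) and after quantile normalization (-0.17, limma adjusted p = 0.00241), and higher in miR-144 after rescaling to TPM (0.14, limma adjusted p = 0.0241).

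Gclm (ENSMUSG00000028124, chr3:122245557-122270732, plus strand) encodes the modifier subunit of the same ligase. It was 1.85, 1.91, 1.51, 1.87 and 1.80 FPKM in control, 3.60, 3.05, 3.17, 3.21 and 2.98 FPKM in miR-144 and 2.85, 3.32, 3.14, 2.49 and 1.36 FPKM in miR-451a. All miR-144 samples were above control, and of the miR-451a samples replicate 5 was below every control sample. The mean was 1.79 times that of control in miR-144 and 1.47 times in miR-451a. Gclm rose by 0.59 (SE 0.13, limma adjusted p = 0.000691) and by 0.35 (SE 0.13, limma adjusted p = 0.0214). Without miR-451a replicate 5 the second value was 0.50 (limma adjusted p = 1.34e-05). It missed the threshold without control replicate 3 (0.31, limma adjusted p = 0.0527) and without miR-451a replicate 2 (0.28, adjusted p = 0.0617) or 3 (0.30, adjusted p = 0.0580). The call was also lost after median centring (0.21, limma adjusted p = 0.149) and after quantile normalization (0.18, adjusted p = 0.218). Gm6061 lies on the same strand within Gclm and overlaps an exon, so reads there could be split, and it was at most 0.625 FPKM in a sample.

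The ratio of Gclc to Gclm was 3.71, 3.55, 4.22, 3.76 and 3.69 in control, 1.97, 2.5, 2.24, 2.17 and 2.26 in miR-144 and 2.45, 2.02, 1.90, 2.58 and 5.18 in miR-451a. It fell by 0.77 on the log2 scale in miR-144 (exact permutation, adjusted p = 0.0179). The difference in miR-451a was -0.52 (exact permutation, adjusted p = 0.107), and -0.77 without miR-451a replicate 5 (exact permutation, adjusted p = 0.0143).

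Gsr (ENSMUSG00000031584, chr8:33652523-33698163, plus strand) encodes glutathione reductase, which returns oxidized glutathione to its reduced form. It was 15.5, 16.6, 16.7, 16.6 and 17.5 FPKM in control, 19.1, 18.4, 17.1, 19.4 and 18.0 FPKM in miR-144 and 17.8, 17.5, 16.4, 15.7 and 17.5 FPKM in miR-451a. Gsr rose by 0.14 in miR-144 (SE 0.04, limma adjusted p = 0.00821), with miR-144 replicate 3 below the highest control sample, and the difference was 0.03 in miR-451a (95% interval -0.06 to 0.12, limma adjusted p = 0.546). The rise equalled the shift of the whole table: after median centring it was 0.01 (limma adjusted p = 0.873) in miR-144, and Gsr was called lower in miR-451a (-0.11, limma adjusted p = 0.0265), whereas after rescaling to TPM it was called higher there (0.11, limma adjusted p = 0.0386).

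The thioredoxin genes also differed among themselves. Txnrd1 (ENSMUSG00000020250, chr10:82833951-82897712, plus strand) encodes the cytosolic thioredoxin reductase. It was 18.6, 18.3, 17.7, 18.0 and 17.4 FPKM in control, 16.2, 16.5, 15.1, 14.7 and 17.0 FPKM in miR-144 and 16.1, 15.3, 13.7, 13.9 and 15.6 FPKM in miR-451a. No sample of the miRNA groups reached the lowest control sample. Txnrd1 fell by 0.17 in miR-144 (SE 0.05, limma adjusted p = 0.00552) and by 0.26 in miR-451a (SE 0.05, limma adjusted p = 0.000200), and the first call was lost after rescaling to TPM (-0.11, adjusted p = 0.0865). The ratio of Gsr to Txnrd1, the reductases of the 2 systems, lay between 0.834 and 1.01 in control, 1.06 and 1.32 in miR-144 and 1.11 and 1.19 in miR-451a. It rose by 0.33 and by 0.31 on the log2 scale (exact permutation, adjusted p = 0.0179 in both), without overlap with control.

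Srxn1 (ENSMUSG00000032802, chr2:152105516-152111376, plus strand) encodes sulfiredoxin, which repairs peroxiredoxins that have been over-oxidized. It was 19.8, 25.8, 20.6, 25.1 and 21.7 FPKM in control, 12.2, 13.1, 4.36, 11.7 and 12.1 FPKM in miR-144 and 15.2, 12.8, 12.3, 11.7 and 9.53 FPKM in miR-451a. Every sample of both miRNA groups lay below the lowest control sample, and miR-144 replicate 3 lay far below the others of its group. The control mean was 2.11 times that of miR-144 and 1.84 times that of miR-451a. Srxn1 fell by 1.08 (SE 0.22, limma adjusted p = 0.000429) and by 0.83 (SE 0.22, limma adjusted p = 0.00323), and without miR-144 replicate 3 it fell by 0.82 in miR-144 (limma adjusted p = 1.02e-05).

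Prdx1 (ENSMUSG00000028691, chr4:116685544-116700822, plus strand) encodes a peroxiredoxin, which reduces hydrogen peroxide with electrons from thioredoxin and is a substrate of sulfiredoxin. It had the highest level of the 10 genes per length, at 139, 148, 134, 141 and 155 FPKM in control, 202, 189, 152, 182 and 204 FPKM in miR-144 and 190, 188, 175, 175 and 182 FPKM in miR-451a. All miR-451a samples were above control, whereas miR-144 replicate 3, at 152 FPKM, lay within the control range. Prdx1 rose by 0.36 (SE 0.07, limma adjusted p = 0.000253) and by 0.34 (SE 0.07, limma adjusted p = 0.000415), opposite in direction to Srxn1. Over median centring, quantile normalization and TPM the rise ranged from 0.23 to 0.51 in miR-144 and from 0.20 to 0.51 in miR-451a. Its longest transcript shares 10.9% of its 50-base windows with Gm21399, Gm7204 or Gm15974, whose highest level in a sample was 5.69 FPKM.

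**Figure D3:**
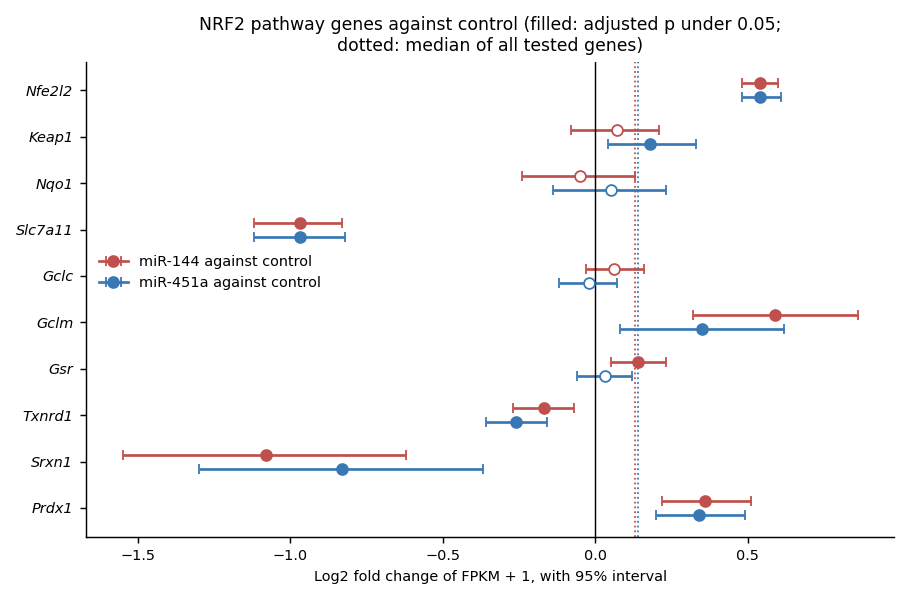
Log2 fold change of FPKM + 1 against control for the 10 genes (points), with 95% intervals, in miR-144 (red) and miR-451a (blue); filled points have an adjusted p under 0.05, and dotted lines mark the median of all tested genes. Nfe2l2, Gclm and Prdx1 lie to the right of 0 and Slc7a11, Srxn1 and Txnrd1 to the left in both comparisons.

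Promoters are shown for Srxn1, Gclm and Prdx1 because each holds letters of the ARE core, while the first fell and the others rose. The ARE core was searched as TGACNNNGC on both strands in the window of 250 bases before to 50 bases after each start site (RefSeq, GRCm38.p6), which was given for 8 of the 10 genes. It was found in Nfe2l2, Srxn1, Gclm, Prdx1 and 1 of the promoters of Txnrd1, that is in 5 of 10 promoters of these genes, and in 12.4% of 32851 promoters of all genes. All matches are in capitals, read on the minus strand of the promoter in the 3 printed here. The core in Prdx1 (TGACTCAGC when read on its own strand) also holds the AP-1 letters TGACTCA. These letters were looked up only inside the matches. Outside the matches they also occur on the minus strand of the Srxn1 promoter and on the plus strand of the Prdx1 promoter.
Srxn1 promoter, chr2:152105274-152105573, plus strand: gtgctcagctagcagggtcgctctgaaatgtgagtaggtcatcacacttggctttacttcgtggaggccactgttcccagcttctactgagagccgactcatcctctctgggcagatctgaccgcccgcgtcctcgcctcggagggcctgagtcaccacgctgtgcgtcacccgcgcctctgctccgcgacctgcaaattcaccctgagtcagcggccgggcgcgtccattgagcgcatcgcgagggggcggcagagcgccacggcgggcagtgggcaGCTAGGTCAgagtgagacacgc
Gclm promoter, chr3:122245307-122245606, plus strand: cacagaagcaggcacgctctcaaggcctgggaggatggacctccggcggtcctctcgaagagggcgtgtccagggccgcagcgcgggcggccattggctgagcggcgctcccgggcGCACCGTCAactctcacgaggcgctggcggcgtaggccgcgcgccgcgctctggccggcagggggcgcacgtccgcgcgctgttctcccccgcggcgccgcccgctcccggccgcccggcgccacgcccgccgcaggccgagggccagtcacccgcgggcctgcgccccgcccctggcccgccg
Prdx1 promoter, chr4:116685349-116685648, plus strand: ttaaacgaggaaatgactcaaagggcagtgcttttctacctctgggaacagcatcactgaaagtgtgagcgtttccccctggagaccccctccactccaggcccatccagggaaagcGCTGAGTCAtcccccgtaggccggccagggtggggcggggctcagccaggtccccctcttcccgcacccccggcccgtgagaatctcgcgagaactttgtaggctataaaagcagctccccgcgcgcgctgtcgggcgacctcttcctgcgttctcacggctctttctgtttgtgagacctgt

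The TAMs of the 2 miRNA groups were not told apart by these genes. None of the 9 tested genes was called between miR-451a and miR-144, and 0 of the 11419 tested genes (0%) were called by limma, with 596 at an unadjusted p under 0.05. The lowest unadjusted p among the antioxidant genes was 0.0192, for Gsr (-0.11 in miR-451a against miR-144, 95% interval -0.20 to -0.02, limma adjusted p = 0.946). The intervals of the difference were -0.06 to 0.06 for Nfe2l2, -0.14 to 0.15 for Slc7a11 and -0.17 to 0.12 for Prdx1, and wider for Srxn1 (-0.21 to 0.71) and Gclm (-0.51 to 0.03).

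Genes around the 10 were read from lists of the NRF2 pathway and of related redox systems. Of 103 further genes, 89 were tested. In miR-144, 29 were called higher and 30 lower (66.3%), and in miR-451a 30 higher and 30 lower (67.4%). The totals were near the shares of all genes, while the directions were evenly split where all genes had 47.1% higher and 20.1% lower in miR-144 and 48.1% and 20.3% in miR-451a, a difference that was not tested. The lists had a median log2 fold change of -0.05 and -0.02. Of the 89 genes, 27 were called higher and 28 lower in both comparisons, which share the control samples. The matching share of all tested genes was not counted, so this count has no background beside it.

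Among partners, competitors and degradation factors of NRF2, 4 of 13 were called higher and 5 lower in miR-144, and 3 higher and 4 lower in miR-451a (medians -0.09 and -0.10). The called shares were 69.2% and 53.8%, against 67.2% and 68.3% of all tested genes, whose medians were 0.13 and 0.14. Mafg, a small MAF partner, rose from 15.1 ± 1.25 FPKM to 18.9 ± 0.507 and 18.1 ± 0.649 FPKM, the second call being lost after median centring (0.10, adjusted p = 0.0608), while Maff, another, fell from 2.20 ± 0.315 to 1.21 ± 0.153 and 1.17 ± 0.172 FPKM. Fbxw11, a ligase subunit that can act on NRF2 without KEAP1, rose from 16.9 ± 0.296 to 21.7 ± 0.523 and 21.1 ± 0.944 FPKM. Bach1, a repressor that competes with NRF2 at AREs, was 28.6 ± 0.410, 30.0 ± 0.883 and 30.1 ± 0.828 FPKM, a rise of 0.07 and 0.08 (limma adjusted p = 0.0330 and 0.0224) that turned to -0.06 and -0.07 after median centring. Both calls were lost after quantile normalization (0.03 and 0.04, limma adjusted p = 0.400 and 0.274). They were also lost when some single samples were left out, at 0.06 to 0.07. Nfe2l1, a relative of Nfe2l2, was called lower, but its control samples were at 12.8, 39.1, 10.1, 38.4 and 12.6 FPKM, so that replicates 2 and 4 set much of the difference. Without either of them the call in miR-144 was lost (-0.52 and -0.53, limma adjusted p = 0.117 in both). The call was lost as well with no filter (-0.77, limma adjusted p = 0.0900), after rescaling to TPM (-0.73, 0.0558) and with only the 2 groups compared (-0.77, 0.0828). The same held without miR-451a replicate 3 (-0.77, 0.0502) and without any of miR-144 replicates 1, 3, 4 and 5 (-0.72 to -0.78, limma adjusted p between 0.0617 and 0.0813). The call in miR-451a (-0.94, limma adjusted p = 0.0161) was kept without replicate 2 (-0.69, adjusted p = 0.0442) or replicate 4 (-0.69, adjusted p = 0.0449). Sqstm1, whose protein p62 binds KEAP1, was 146 ± 4.05, 134 ± 6.19 and 133 ± 5.52 FPKM and fell by 0.12 and 0.14 (limma adjusted p = 0.00779 and 0.00437), with a difference of 0.02 and 0.01 after quantile normalization. Both calls were lost after rescaling to TPM as well (-0.05 in each, limma adjusted p = 0.255 and 0.259).

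Among 23 other known NRF2 targets tested, 8 were called higher and 8 lower in miR-144, and 10 higher and 7 lower in miR-451a (medians -0.04 and 0.12). With 69.6% and 73.9% called, the list lay near the 67.2% and 68.3% of all tested genes. Hmox1, heme oxygenase 1, fell in both, from between 149 and 154 FPKM in control to between 119 and 130 FPKM in miR-144 and between 116 and 123 FPKM in miR-451a, by 0.30 and 0.35 (SE 0.03, limma adjusted p = 3.83e-07 and 5.44e-08). Mgst1, a microsomal glutathione transferase, fell from 82.2 ± 8.30 to 35.3 ± 1.99 and 33.1 ± 1.81 FPKM. Esd, an esterase of the formaldehyde pathway, fell from 70.2 ± 2.27 to 29.5 ± 2.71 and 25.0 ± 1.40 FPKM. In the other direction Osgin1 rose from 3.21 ± 0.360 to 7.61 ± 1.23 and 8.25 ± 0.953 FPKM, and Abcc1, an exporter of glutathione conjugates, rose from 5.11 ± 0.345 to 10.4 ± 0.438 and 10.4 ± 0.435 FPKM. The groups of these 5 genes did not overlap with control.

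Of 20 other genes of glutathione metabolism, 6 were called higher and 6 lower in miR-144, and 7 and 6 in miR-451a (medians -0.01 and -0.00). Called in all were 60.0% and 65.0%, against 67.2% and 68.3% of all tested genes. Gpx3, the secreted glutathione peroxidase, rose from 24.7 ± 1.99 to 79.1 ± 3.89 and 88.4 ± 2.60 FPKM, by 1.64 and 1.80 (SE 0.05, limma adjusted p = 3.81e-13 and 1.34e-13). Gpx8, a peroxidase of the endoplasmic reticulum, rose from 4.34 ± 0.457 to 7.94 ± 0.855 and 8.73 ± 1.22 FPKM, while Glrx, glutaredoxin, fell from 7.29 ± 0.203 to 4.35 ± 0.233 and 4.36 ± 0.292 FPKM.

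Of 17 other genes of the thioredoxin system, 6 were called higher and 5 lower in miR-144, and 5 and 7 in miR-451a (medians 0.02 and -0.05). This was 64.7% and 70.6% called, against 67.2% and 68.3% of all tested genes. Txn1, thioredoxin itself and the substrate of Txnrd1, was 164, 190, 179, 210 and 169 FPKM in control, 87.4, 69.9, 73.8, 79.4 and 73.2 FPKM in miR-144 and 61.5, 70.9, 71.3, 77.3 and 71.2 FPKM in miR-451a. It fell by 1.24 and 1.36 (SE 0.08, limma adjusted p = 1.37e-09 and 4.36e-10), with the groups far apart. Txnip, whose protein binds and inhibits thioredoxin, was 76.9, 57.5, 81.2, 84.7 and 84.9 FPKM in control, 220, 233, 223, 256 and 225 FPKM in miR-144 and 171, 244, 259, 254 and 159 FPKM in miR-451a. It rose by 1.59 and 1.47 (SE 0.14, limma adjusted p = 1.01e-07 and 2.31e-07), opposite to Txn1 in every miRNA sample. Msrb2, a mitochondrial methionine sulfoxide reductase, rose from 2.78 ± 0.349 to 7.73 ± 0.774 and 8.65 ± 0.666 FPKM. Txn2, the mitochondrial thioredoxin, fell from between 10.8 and 18.2 FPKM to between 8.08 and 13.1 FPKM and between 7.94 and 11.1 FPKM, with overlapping groups.

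The superoxide dismutases went in different directions. Sod1, the cytosolic enzyme, rose from between 10.1 and 12.9 FPKM in control to between 25.7 and 29.6 FPKM in both miRNA groups, by 1.16 in each (SE 0.06, limma adjusted p = 1.63e-10 and 1.62e-10), and its copper chaperone Ccs rose from between 7.94 and 9.74 FPKM to between 9.83 and 11.5 FPKM and between 9.46 and 12.0 FPKM, a rise that lost its call after median centring (adjusted p = 0.115 and 0.193). Sod3, the extracellular enzyme, fell from between 12.4 and 17.3 FPKM to between 1.77 and 4.56 FPKM and between 2.32 and 3.90 FPKM, by 1.97 and 2.05 (SE 0.21, limma adjusted p = 7.39e-07 and 4.41e-07). Mitochondrial Sod2, named to complete the family, was 6.05 ± 0.171, 5.65 ± 0.0691 and 5.64 ± 0.436 FPKM and missed the threshold (limma adjusted p = 0.0756 and 0.0642).

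**Figure D4:**
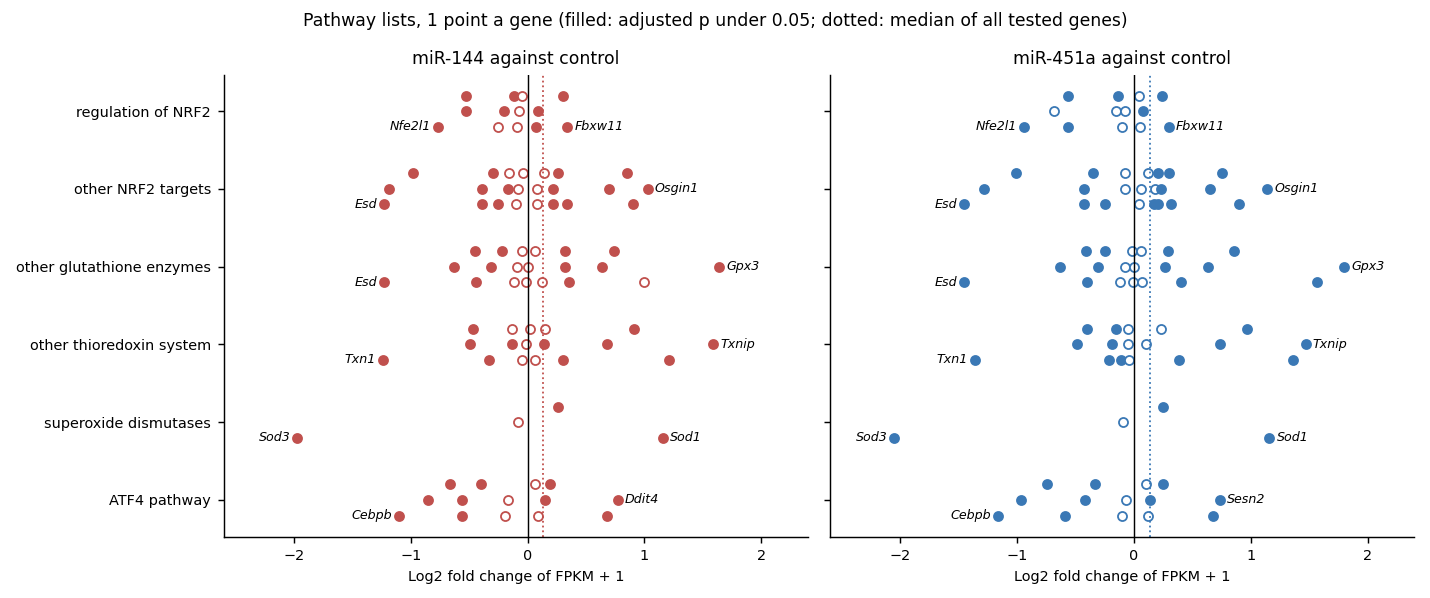
Log2 fold change of FPKM + 1 of each tested gene in 6 lists around NRF2 (1 point a gene), in miR-144 (left) and miR-451a (right) against control; filled points have an adjusted p under 0.05, the dotted line is the median of all tested genes, and the lowest and highest gene of each list are named. Each list holds genes on both sides of 0, with Sod3 lowest (-1.97 and -2.05) and Gpx3 highest (1.64 and 1.80).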

How the data were processed

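RNA-seq values of 15 samples of sorted TAMs, 5 a group, were used. The authors deposited FPKM per gene and sample, and the submitters' processing notes list FastQC 0.11.2, STAR and StringTie. The genome build and the annotation are not given in the sources used here. FPKM is divided by transcript length and depth, so levels of genes can be compared per length, but a large shift in a few abundant genes moves the rest. The depth implied by the steps between low values was 15.5 to 30.3 M fragments a sample. Counts were not recovered, because 34.4% to 46.7% of low values lay on such a step (within 0.05 of a fragment).

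Groups came from the sample labels. Genes were tested on log2(FPKM + 1) with limma 3.58.1 (R 4.3.3), with a trend, the 3 groups in 1 fit and Benjamini-Hochberg adjustment, over the 11419 genes whose mean reached 1 FPKM, and the step was tested on simulated data. Fold changes are on that scale. Ratios were compared with exact permutation tests in Python 3.11.15 (numpy 2.4.6, pandas 2.3.3), and plots used matplotlib 3.10.9. The 10 genes and the lists were chosen with earlier results of these data known. Named list genes were the 2 largest rises and falls of each list among genes called alike in both comparisons with control, plus Hmox1, Bach1, Txn1 and Sqstm1. Slc3a2 and Sod2 were named outside this rule, after their values were seen. Alternatives were a pseudocount of 0.1, no filter, a mean of at least 5 FPKM, median centring, quantile normalization, TPM, the replicate block, only 2 groups, no trend and each sample left out. Identifiers were matched to GENCODE M21 (GRCm38, 99.67% found), and its coordinates may differ from those of the authors' build. The values of 1 marker gene are not reported here.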

Additional observations from a re-analysis of the deposited data

Results flagged for a closer look

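In 39 genes and ratios, each in 3 groups of 5 samples, 8 of the 117 groups had a sample far from the other 4 by Dixon's criterion, where chance gives about 1 in 20, or 5.85. Among the antioxidant genes, Srxn1 in miR-144 replicate 3 was 4.36 FPKM, with the others between 11.7 and 13.1. Nqo1 in control replicate 5 was 2.09 FPKM, above a next highest of 1.53, and Gclm in control replicate 3 was 1.51 FPKM, below a next lowest of 1.80. Of the ratios, that of Gclc to Gclm in miR-451a replicate 5 was 5.18, with the others between 1.90 and 2.58. The ratio of Nfe2l2 to Keap1 was 6.63 in control replicate 4, above a next highest of 5.62, and 6.62 in miR-451a replicate 5, below a next lowest of 7.29. Among list genes, Atf4 in miR-451a replicate 5 was 43.0 FPKM, with the others between 30.0 and 30.8, and Sqstm1 in control replicate 1 was 153 FPKM, above a next highest of 145. Of these 8, 3 lay in miR-451a replicate 5.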

How the results depend on the processing

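The counts of called antioxidant genes stayed between 5 and 7 in both comparisons with control over 24 alternatives, and at 0 between the miRNA groups. The counts over the lists ran from 48 to 62 in miR-144 and from 49 to 64 in miR-451a. Of 708 single results of the 10 genes, 690 kept their side of the threshold, 12 lost a call, 5 gained one and 1 reversed, Gsr in miR-451a at -0.11 after median centring (0.11, called higher, after rescaling to TPM). The 690 include 236 results between the miRNA groups, where none of the 10 genes was called, so every change lay in the comparisons with control. Bach1 reversed to -0.06 in miR-144 and -0.07 in miR-451a after median centring, and Sqstm1 to 0.02 and 0.01 after quantile normalization. Another 30 sign changes concerned differences called under neither setting. With a mean of at least 5 FPKM, which tests fewer genes, 4776 genes were called in miR-144 and 4821 in miR-451a, against 7668 and 7804. Between the miRNA groups, 0 to 2 genes of all tested were called when 1 sample was left out: 2 without miR-144 replicate 4 or 5 or miR-451a replicate 3, and 1 without miR-451a replicate 5. With 1 miR-451a or control sample left out, the log2 ratio of Gclc to Gclm in miR-451a against control ranged from -0.77 (without miR-451a replicate 5, adjusted p = 0.0143, exact permutation) to -0.41, and the cause of the change was not tested.

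No label ties same-numbered samples to each other, so the numbers were not taken as pairs. The deviations of same-numbered samples correlated between -0.150 and 0.264, with 8 of 15 pairs over 0.1. Of the 15, 8 correlated best with their own number, a hint of pairing from the data and not the design. With the replicate block, 7711, 7859 and 0 genes were called, and no call of a named gene changed. For the ratios the block allows no p under 0.0625, so the differences of 0.48 and 0.35 (Nfe2l2 to Keap1), -0.77 (Gclc to Gclm in miR-144), and 0.33 and 0.31 (Gsr to Txnrd1) had an adjusted p of 0.113. Depth limits Nqo1, Slc7a11 and Gclm most, and intervals cover the spread between samples only.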

Other observations

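The genes whose level was most like that of Nfe2l2 across the 15 samples, by Pearson r on log2(FPKM + 1), were Apbb1ip, Ap1s2, Rybp, Rgs18 and Sf3b1 (r between 0.996 and 0.997). Control samples and the samples of both miRNA groups form separate clusters for Nfe2l2, so this likeness describes mostly the step between control and both miRNA groups. Apbb1ip, an adaptor of integrin signalling, was 12.5, 23.3 and 23.6 FPKM on average in control, miR-144 and miR-451a, and Sf3b1, a splicing factor, was 25.6, 37.7 and 38.8 FPKM. After the group means were subtracted, the genes closest to Nfe2l2 were Plaa (r = 0.942), Cdk19, Vps13a, Herc4 and Msh6 (r between 0.903 and 0.919). Plaa was 8.62, 8.58 and 8.79 FPKM in the 3 groups, so it followed Nfe2l2 within groups without its step between them. These are descriptions over samples that share library depth and scaling, chosen among all tested genes.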
